A study of Mus musculus with 4 samples.

Results

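The 39 genes described here are p53, its ubiquitin ligase, and genes that p53 is known to switch on or that carry out apoptosis, taken from a fixed list of symbols and looked up by name among the 55471 features of the deposited matrices, where all 39 were found. The p53 protein is a transcription factor that is held low in healthy cells by Mdm2, which marks it for degradation, and that accumulates after DNA damage and other stresses. It then binds response elements near its target genes, among them Cdkn1a, which stops the cell cycle by inhibiting cyclin-dependent kinases, Gdf15, a secreted stress cytokine, and Bbc3 and Pmaip1, which trigger death through mitochondria. Dnmt1 copies DNA methylation onto the new strand at replication, and loss of Dnmt1 in dividing fibroblasts is known to raise p53 and its targets.

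Cells of lung at E18.5 were profiled by droplet single-cell RNA sequencing from 4 libraries. A pair of them carried Tbx4-rtTA and Tet-O-Cre together with Dnmt1-D/D (Dnmt1 CKO replicates 1 and 2), and the other pair was wild type (WT replicates 1 and 2). The Tbx4 element drives Cre in the mesenchyme of the lung and only while doxycycline is given, so epithelium, endothelium and blood cells are not its targets. The labels do not say whether wild-type lungs carried any of the transgenes, when doxycycline was given, or that each library is a separate embryo, so p-values measure the spread between these libraries.

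The deposited matrices held 48213065 to 56760219 UMIs (unique molecules counted) per library, and 4323 to 5675 cells passed the filters, with medians of 5902 to 7685 UMIs per cell. Of 27738 distinct barcodes, 77 occurred in more than 1 library. Sex was read from Y-linked transcripts (under 1 CPM in 2 of the 4 libraries) and not from Xist, a choice made after seeing the data, since Xist was on in a library that held Y-linked transcripts. The mesenchymal-like class, named from its collagen and fibroblast markers, held 2562 and 2788 cells in Dnmt1 CKO replicates 1 and 2, against 2780 and 2546 in WT replicates 1 and 2. In these cells Dnmt1 itself stood at 9.71 and 12.8 CPM (UMIs of the gene scaled to a common library total) in Dnmt1 CKO, against 27.7 and 26.0 CPM in WT (log2 fold change -1.27, SE 0.215, adjusted p = 0.00624). The assay counts the 3' end of a transcript, and the sources used here do not say which exons are removed. Red cell markers, which free RNA carries into other cells, summed to 5858 and 2790 CPM in Dnmt1 CKO mesenchymal-like cells, against 2809 and 1447 CPM in WT. Markers of epithelium summed to 45.5 and 95.5 CPM in Dnmt1 CKO, against 48.9 and 39.3 CPM in WT, and those of immune cells to 26.7 and 38.5 CPM, against 15.6 and 17.3 CPM. None of the 8 epithelial, 8 endothelial or 7 immune markers was at 0 in any of these sums, and their part in the results was not tested.

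Promoter windows were available in the RefSeq table (GRCm38.p6, 250 bases before to 50 after a transcript start) for 31 members, and not matched for Ddb2, Perp, Pmaip1, Rrm2b, Tnfrsf10b, Trp53inp1, Xpc and Zmat3. They were searched for the p53 response element, a pair of 10-base half-sites that each hold the core CNNG, with at most 1 mismatch over both and at most 1 base between them. Since the element reads the same on both strands, one pass covers both. It was present in 0.11% of all 32851 windows (36 windows) and in windows of 3 members: Cdkn1a, Ccng1 and Rps27l. These are shown because they are the sequences through which p53 could act on members described below, and a match describes letters and not a site that was measured. Each line runs 5' to 3' on the gene's own strand, with the 20-base element in capitals.
Cdkn1a (chr17:29090908-29090967, + strand, element from position -51): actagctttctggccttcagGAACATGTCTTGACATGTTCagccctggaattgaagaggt
Ccng1 (chr11:40755442-40755501, - strand, element from position -195): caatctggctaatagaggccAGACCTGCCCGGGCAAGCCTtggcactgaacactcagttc
Rps27l (chr9:66946276-66946335, + strand, element from position -117): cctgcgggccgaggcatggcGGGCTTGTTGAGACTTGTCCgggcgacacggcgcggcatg
Positions count from the transcript start that the window was cut around. Each of the 3 elements had 1 mismatch and no spacer. The windows of Gdf15, Trp53, Mdm2 and Bbc3 held no match of this kind.

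The first comparison asked which members differed between Dnmt1 CKO and WT in the mesenchymal-like cells as a whole, on UMIs summed per library. A gene is called here when its adjusted p is under 0.05 over all genes tested. The share of all genes called is not given for DESeq2, for thinned cells or for fits with a library left out. A count of called members that changes in those fits is therefore not read as a result about the members. All 39 members could be tested, of which 11 rose in Dnmt1 CKO and 0 fell, while 7.19% of the 16134 genes tested were called higher and 5.9% lower. The median log2 fold change of the members was 0.38, and that of all genes tested was 0.00. The 2 groups of libraries did not overlap in 21 members that were higher in Dnmt1 CKO and in 5 that were lower, where 31.3% and 26.2% of all genes were so separated.

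Trp53, the gene of p53 itself, was at 115 and 118 CPM in Dnmt1 CKO, against 59.9 and 62.5 CPM in WT (log2 fold change 0.92, SE 0.173, adjusted p = 0.00979). Both Dnmt1 CKO libraries were close to each other and well above both WT libraries. Mdm2 had 49.2 and 48.1 CPM in Dnmt1 CKO, against 35.5 and 41.2 CPM in WT, and was not called (log2 fold change 0.33, SE 0.174, adjusted p = 0.255).

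Among the 12 members that arrest the cell cycle or answer stress, 5 were called higher. Gdf15 had 13.9 and 17.9 CPM in Dnmt1 CKO, against 0.645 and 0.845 CPM in WT (log2 fold change 4.21, SE 0.302, adjusted p = 4.26e-05). It was close to absent in WT mesenchyme and gave the largest fold change of the 39. Cdkn1a had 104 and 140 CPM in Dnmt1 CKO, against 36.4 and 47.6 CPM in WT (log2 fold change 1.53, SE 0.216, adjusted p = 0.00257). Psrc1, a microtubule-binding protein that p53 regulates, had 13.7 and 14.3 CPM in Dnmt1 CKO, against 6.45 and 3.63 CPM in WT (log2 fold change 1.44, SE 0.307, adjusted p = 0.0164). Zmat3, an RNA-binding protein, had 13.4 and 14.5 CPM in Dnmt1 CKO, against 7.62 and 6.32 CPM in WT (log2 fold change 0.98, SE 0.234, adjusted p = 0.0263). The call of Zmat3 was lost without WT replicate 2, with log2 fold changes of 0.81 to 1.17 as each library was left out. Ccng1, which encodes cyclin G1, had 45.1 and 36.6 CPM in Dnmt1 CKO, against 23.5 and 24.6 CPM in WT (log2 fold change 0.75, SE 0.184, adjusted p = 0.0298). The call of Ccng1 was lost without Dnmt1 CKO replicate 1 (adjusted p = 0.272) or WT replicate 2 (adjusted p = 0.0722), and with the sex of the libraries as a term (adjusted p = 0.0665). In all 5 genes both Dnmt1 CKO libraries lay above both WT libraries. The other 7 of this role (Btg2, Plk2, Sesn1, Sesn2, Phlda3, Trp53inp1 and Rps27l) had log2 fold changes of -0.58 in Sesn1 to 0.47 in Rps27l, and none was called.

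Of the 5 death receptors and their partners, 2 were called, both receptors of low abundance. Eda2r, a receptor of the tumour necrosis factor family for ectodysplasin A2, had 1.76 and 3.30 CPM in Dnmt1 CKO, against 0.410 and 0.696 CPM in WT (log2 fold change 1.97, SE 0.455, adjusted p = 0.0228). Tnfrsf10b, the mouse receptor for the death ligand TRAIL, had 3.27 and 2.41 CPM in Dnmt1 CKO, against 1.11 and 0.696 CPM in WT (log2 fold change 1.54, SE 0.392, adjusted p = 0.0342). The call of Eda2r was lost without Dnmt1 CKO replicate 2, WT replicate 1 or WT replicate 2. That of Tnfrsf10b was lost by DESeq2 and without Dnmt1 CKO replicate 1 or WT replicate 2. As each library was left out, log2 fold changes ran from 1.48 to 2.35 for Eda2r and from 1.21 to 1.91 for Tnfrsf10b. Fas, Casp8 and Pidd1 had log2 fold changes of 0.66, 0.74 and 0.81, with adjusted p of 0.124, 0.0662 and 0.314.

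Of the 12 promoters of mitochondrial or other apoptosis, the 2 called were the BH3-only genes best known as p53 targets. Bbc3, which encodes Puma, had 20.4 and 27.4 CPM in Dnmt1 CKO, against 8.79 and 9.40 CPM in WT (log2 fold change 1.37, SE 0.222, adjusted p = 0.00506). Pmaip1, which encodes Noxa, had 2.26 and 1.94 CPM in Dnmt1 CKO, against 0.234 and 0.696 CPM in WT (log2 fold change 1.92, SE 0.463, adjusted p = 0.0271). The call of Pmaip1 was lost without Dnmt1 CKO replicate 1 or WT replicate 1, with log2 fold changes of 1.49 to 2.63 as each library was left out. The pore formers and the machinery that follows them were not called: Bax had a log2 fold change of 0.41, Bak1 of -0.05, Apaf1 of 0.04 and Casp9 of 0.21. The anti-apoptotic Bcl2, Bcl2l1 and Mcl1 were at log2 fold changes of -0.01, -0.03 and -0.29 and were not called either. Of 5 genes of DNA repair and nucleotide supply, Rrm2b, the p53-inducible subunit of ribonucleotide reductase, was called, with 42.1 and 42.9 CPM in Dnmt1 CKO, against 19.3 and 27.7 CPM in WT (log2 fold change 0.84, SE 0.199, adjusted p = 0.0246). The call of Rrm2b was lost without WT replicate 1, with log2 fold changes of 0.65 to 1.07 as each library was left out. The repair genes Ercc5, Xpc and Ddb2 had log2 fold changes of -0.42, -0.43 and -0.06, and Polk of 0.42. Without WT replicate 2 the count of called members was 7, and without each other library it was at most 10.

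**Figure D1:**
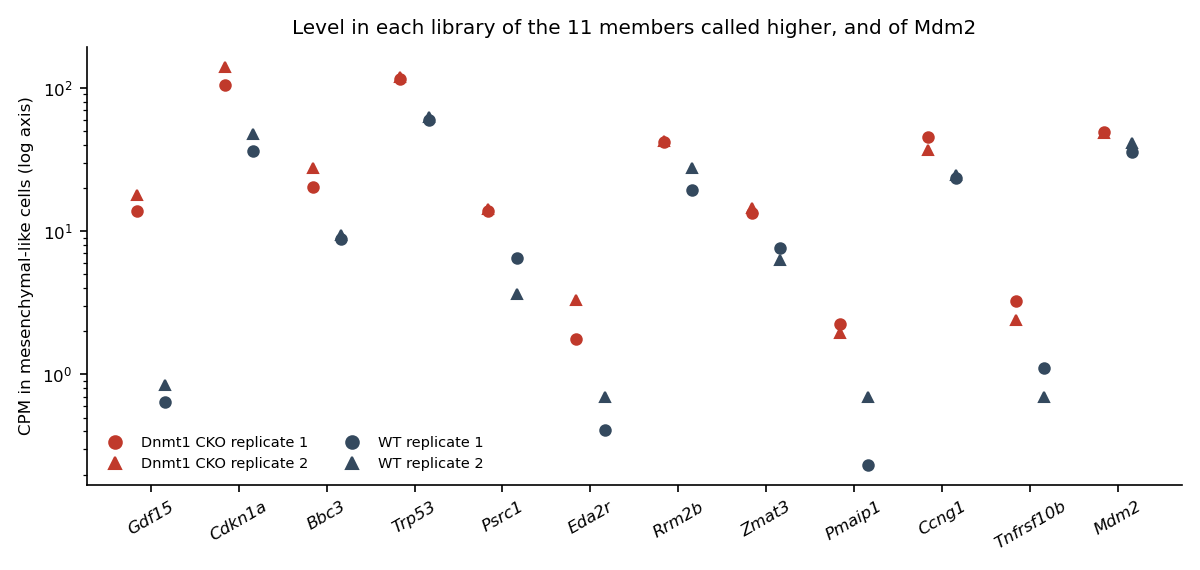
Each point is the level of a gene in the mesenchymal-like cells of 1 library, in CPM on a log axis, for the 11 members called higher in Dnmt1 CKO in order of adjusted p, and for Mdm2. Dnmt1 CKO libraries stand left of WT libraries, circles are replicate 1 and triangles replicate 2. Gdf15 shows the widest gap, at 13.9 and 17.9 CPM in Dnmt1 CKO against 0.645 and 0.845 CPM in WT.

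The wider p53 pathway was measured by 28 further genes, of which 5 rose in Dnmt1 CKO mesenchymal-like cells and 2 fell (median log2 fold change 0.26). Igfbp3, a p53 target that binds insulin-like growth factors, fell to 19.5 and 17.6 CPM in Dnmt1 CKO, against 45.4 and 52.0 CPM in WT (log2 fold change -1.40, adjusted p = 0.00148). Ckap2, a spindle protein, rose to 29.2 and 20.1 CPM, against 10.5 and 7.86 CPM in WT (log2 fold change 1.39, adjusted p = 0.00927). Ddit4, an inhibitor of mTORC1 signalling, rose to 35.4 and 24.3 CPM, against 10.8 and 17.1 CPM in WT (log2 fold change 1.08, adjusted p = 0.0248). Cdkn2a, which encodes p16 and Arf and is known to be held silent by chromatin in embryonic tissue, was at 3.57 and 2.36 CPM in Dnmt1 CKO, against 0 and 0.0994 CPM in WT (adjusted p = 0.00159). Of 26 other apoptosis genes 3 rose and 1 fell (median log2 fold change 0.14). In this fit 7.19% of all genes tested were called higher and 5.9% lower. Bok, a relative of Bax and Bak1, rose to 44.7 and 36.3 CPM in Dnmt1 CKO, against 19.5 and 10.9 CPM in WT (log2 fold change 1.38, adjusted p = 0.0143). Bcl2l2, an anti-apoptotic gene, fell to 14.3 and 17.4 CPM in Dnmt1 CKO, against 26.8 and 30.0 CPM in WT (log2 fold change -0.85, adjusted p = 0.0216).

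Other programmes moved in the same cells. A list of 34 mitotic genes, read here for G2 and M phase, had 19 members higher in Dnmt1 CKO and 0 lower, Cdc20, Ccnb1 and Nusap1 among the higher. Of 32 genes of S phase 7 were higher and 0 lower, Hells, Mcm3, Mcm5 and Rfc2 among them. Of 13 targets of the stress factor Atf4, a pathway through which Gdf15 can also be induced, 7 rose and 2 fell. Mthfd2 rose to 32.1 and 27.8 CPM in Dnmt1 CKO, against 5.98 and 4.52 CPM in WT, and Asns to 12.1 and 17.8 CPM, against 1.23 and 0.497 CPM. Of 16 genes that tissue dissociation is known to induce, 1 rose (Ier3) and 0 fell, with a median log2 fold change of -0.04. The part of these programmes in the members' changes was not tested.

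The next question was whether members differed within the kinds of mesenchymal cell. Clustering all cells together, with the members left out of the clustering genes, placed most Dnmt1 CKO mesenchymal-like cells apart from WT cells: 1582 and 1434 cells in Dnmt1 CKO replicates 1 and 2, against 29 and 27 in WT, were in 2 clusters that met no naming rule. Cluster 1 was led by Saa3, Dazl and Rpl39l and held 1042 and 1056 Dnmt1 CKO cells, against 1 and 1 WT cells. In it Cdkn1a was at 134 and 203 CPM and Gdf15 at 27.0 and 33.0 CPM in the Dnmt1 CKO libraries. Cluster 5, led by Ptn, Lum and Dcn, held 540 and 378 Dnmt1 CKO cells, where Cdkn1a was at 45.1 and 79.1 CPM and Gdf15 at 0.694 and 6.09 CPM. In the Dnmt1 CKO cells of cluster 0, the main WT matrix fibroblast-like cluster, Cdkn1a was at 27.0 and 24.6 CPM and Gdf15 had 0 UMIs in 45 and 320 cells. Among clusters 0, 1 and 5, both genes were highest in cluster 1 and lowest in cluster 0 in each Dnmt1 CKO library, which is given as a description. Cluster 13, of the smooth muscle-like cells, had more Cdkn1a than cluster 1 (175 and 281 CPM) and less Gdf15 (4.64 and 21.8 CPM).

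Within the named subclasses of this joint clustering few members were called. Matrix fibroblast-like cells (143 and 451 in Dnmt1 CKO, against 1869 and 1719 in WT) gave 0 calls among 32 tested members by edgeR, with 6 at an unadjusted p under 0.05, and 0 by DESeq2, where 0.38% of all genes were called. Without WT replicate 1 there was 1 call in this class. Alveolar myofibroblast-like cells gave 0 of 31 by edgeR, with 6 at an unadjusted p under 0.05, and 0 by DESeq2 (0.43% of all genes). Cdkn1a in that class had 55.0 and 108 CPM in Dnmt1 CKO, against 138 and 184 CPM in WT, groups that did not overlap, and was not called (log2 fold change -0.89, SE 0.311, adjusted p = 0.381). In these joint-clustering classes few Dnmt1 CKO cells held germline genes, the mark of state described further on: 19.6% and 1.55% of the matrix fibroblast-like cells and 28.9% and 5.88% of the alveolar myofibroblast-like cells of replicates 1 and 2 had 2 or more such UMIs, and 84.4% and 61.9% of all Dnmt1 CKO mesenchymal-like cells did. The cycling-like cluster gave 0 of 26 by edgeR, with 5 at an unadjusted p under 0.05, and 0 by DESeq2 (2.72% of all genes). Adventitial fibroblast-like cells gave 1 call of 31 (0.81% of all genes were called higher): Gdf15 rose to 24.0 and 8.04 CPM in Dnmt1 CKO, against 1.19 and 0.673 CPM in WT (log2 fold change 2.82, SE 0.576, adjusted p = 0.0438), and this call was lost without WT replicate 1 (adjusted p = 0.534) or WT replicate 2 (adjusted p = 0.911), by DESeq2 (adjusted p = 0.138) and with no low-count filter (adjusted p = 0.712). Without Dnmt1 CKO replicate 1 Gdf15 was not tested and 0 members were called. Pericyte-like cells gave 1 of 28 (1.4% of all genes were called higher): Cdkn1a rose to 94.8 and 38.4 CPM in Dnmt1 CKO, against 25.1 and 21.1 CPM in WT (log2 fold change 1.54, SE 0.376, adjusted p = 0.0400), a call lost without Dnmt1 CKO replicate 1, WT replicate 1 or WT replicate 2, while without Dnmt1 CKO replicate 2 there were 2 calls.

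Smooth muscle-like cells gave 5 calls among 32 tested members, 4 higher and 1 lower, where 5.32% of all genes were called higher and 5.86% lower. Plk2, a stress-induced polo-like kinase, had 80.3 and 51.8 CPM in Dnmt1 CKO, against 11.1 and 13.8 CPM in WT (log2 fold change 2.27, SE 0.353, adjusted p = 0.00176). Perp, a desmosome and apoptosis protein, had 2.64 and 3.27 CPM in Dnmt1 CKO, against 12.7 and 22.6 CPM in WT (log2 fold change -2.19, SE 0.445, adjusted p = 0.00783). Cdkn1a had 175 and 242 CPM in Dnmt1 CKO, against 60.5 and 100.4 CPM in WT (log2 fold change 1.34, SE 0.291, adjusted p = 0.0110), and Dram1 was higher as well. The anti-apoptotic Bcl2 had 164 and 124 CPM in Dnmt1 CKO, against 76.4 and 69.0 CPM in WT (log2 fold change 0.97, SE 0.246, adjusted p = 0.0242). Its call was lost by DESeq2 and without Dnmt1 CKO replicate 1, Dnmt1 CKO replicate 2 or WT replicate 2, and its fold change turned to -0.44 under the label transfer described next. The call of Dram1 was lost by DESeq2 and without Dnmt1 CKO replicate 1 or WT replicate 2. That of Perp, which rests on 7 and 6 UMIs against 8 and 18 in WT, was lost without Dnmt1 CKO replicate 1, Dnmt1 CKO replicate 2 or WT replicate 2. The call of Cdkn1a was lost without Dnmt1 CKO replicate 2 and under label transfer. Of 29 tested G2 and M phase genes 27 were called lower in Dnmt1 CKO smooth muscle-like cells, with Top2a at 21.1 and 21.8 CPM in Dnmt1 CKO, against 204 and 84.1 CPM in WT, and the part of this difference in the members' changes was not tested. Gdf15 had 5.28 and 19.6 CPM in Dnmt1 CKO, against 7.96 and 7.53 CPM in WT, and was not called. The 2 clusters of this class were filled unequally: cluster 13 held 318 and 262 Dnmt1 CKO cells, against 15 and 30 WT cells, and cluster 20 held 36 and 52, against 63 and 51. In the label transfer described next, 270 and 197 cells of cluster 13 took the label of alveolar myofibroblasts. WT alveolar myofibroblast-like cells had 68.7 and 84.0 CPM of Plk2, 138 and 184 CPM of Cdkn1a and 246 and 229 CPM of Bcl2. Dram1 was at 16.1 and 15.1 CPM in them and Perp at 0 and 0.456 CPM. By label transfer Plk2 had 14.5 and 4.30 CPM in Dnmt1 CKO smooth muscle-like cells, against 11.1 and 13.8 CPM in WT. The fold changes of this class compare unlike mixtures of clusters, whose part in the 5 calls was not tested. Without Dnmt1 CKO replicate 1 there were 2 calls in this class, and without Dnmt1 CKO replicate 2 there was 1.

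Since most Dnmt1 CKO cells had no name in the joint clustering, each was also given the subclass of its nearest WT cells, a label transfer that assumes the kinds of cell found in WT. By this rule 1786 and 1963 Dnmt1 CKO cells were matrix fibroblast-like, against 1898 and 1746 WT cells, and 12 of 39 members rose and 0 fell, where 10.3% of the 14642 genes tested were called higher and 7.85% lower. In Dnmt1 CKO most of this class came from clusters 1 and 5, and in WT from clusters 0 and 10. Trp53 had 118 and 121 CPM in Dnmt1 CKO, against 50.1 and 51.1 CPM in WT (log2 fold change 1.18, SE 0.177, adjusted p = 0.00292). Cdkn1a had 97.5 and 128 CPM in Dnmt1 CKO, against 14.5 and 23.7 CPM in WT (log2 fold change 2.50, SE 0.261, adjusted p = 0.00048). Both Dnmt1 CKO libraries lay far above both WT libraries. Gdf15 had 193 and 221 UMIs in Dnmt1 CKO (14.7 and 19.08 CPM), against 2 and 3 UMIs in WT (0.169 and 0.217 CPM). It passed the low-count filter only through the Dnmt1 CKO libraries. Eda2r had 1.83 and 2.85 CPM in Dnmt1 CKO, against 0.0847 and 0 CPM in WT. The other calls were Bbc3, Zmat3, Psrc1, Rrm2b, Tnfrsf10b, Pmaip1, Ccng1 and Casp8, the initiator caspase of the death receptors. By DESeq2 the calls of Tnfrsf10b, Pmaip1 and Casp8 were lost. Those of Casp8 and Pmaip1 were also lost whichever library was left out, with log2 fold changes of 0.81 to 0.90 and 1.47 to 2.36. Without WT replicate 2 there were 7 calls. Sesn1, a stress-induced regulator of mTORC1, had 14.9 and 21.7 CPM in Dnmt1 CKO, against 25.5 and 35.2 CPM in WT, and was not called (log2 fold change -0.78, adjusted p = 0.0544).

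Under the same rule Gdf15 was the 1 member called in adventitial fibroblast-like cells, with 22.6 and 15.9 CPM in Dnmt1 CKO, against 1.19 and 0.673 CPM in WT (adjusted p = 0.00157, 1.36% of all genes called higher). It was also the 1 member of 32 tested that was called in alveolar myofibroblast-like cells, with 10.4 and 15.7 CPM in Dnmt1 CKO, against 0 and 0.456 CPM in WT (adjusted p = 0.00422, 2.75% of all genes called higher). WT held 0 and 1 Gdf15 UMIs there, so Gdf15 passed the low-count filter only through the Dnmt1 CKO libraries. Of the 320 and 307 Dnmt1 CKO cells in this class, 270 and 197 came from cluster 13, which was smooth muscle-like in the joint clustering. Cdkn1a was already high in WT alveolar myofibroblast-like cells, and its 169 and 242 CPM in Dnmt1 CKO overlapped the 138 and 184 CPM of WT (log2 fold change 0.42, SE 0.249, adjusted p = 0.402). Across the WT subclasses Cdkn1a ranked highest in alveolar myofibroblast-like cells and lowest in matrix fibroblast-like (14.5 and 23.7 CPM) and pericyte-like cells (25.1 and 21.1 CPM), whose values were close, while adventitial fibroblast-like (99.7 and 56.5 CPM), smooth muscle-like (60.5 and 100.4 CPM) and cycling-like cells (50.6 and 94.6 CPM) overlapped between them. Gdf15 in WT was highest in smooth muscle-like cells (7.96 and 7.53 CPM, from 5 and 6 UMIs). Next came pericyte-like cells (2.43 and 4.08 CPM, from 3 and 6 UMIs), so this order rests on few counts. Pericyte-like cells by label transfer gave 1 call, Cdkn1a, with 85.3 and 36.5 CPM in Dnmt1 CKO, against 25.1 and 21.1 CPM in WT (adjusted p = 0.0418, 1.05% of all genes called higher). Dnmt1 in them overlapped between the groups, at 23.3 and 39.3 CPM in Dnmt1 CKO, against 33.2 and 42.1 CPM in WT. Smooth muscle-like cells (51 and 71 in Dnmt1 CKO) gave 0 calls among 24 tested members by edgeR, with 0 at an unadjusted p under 0.05 (0.712% of all genes), and the cycling-like class gave 0 of 27, with 3 (2.14% of all genes). DESeq2 was not run on these classes.

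**Figure D2:**
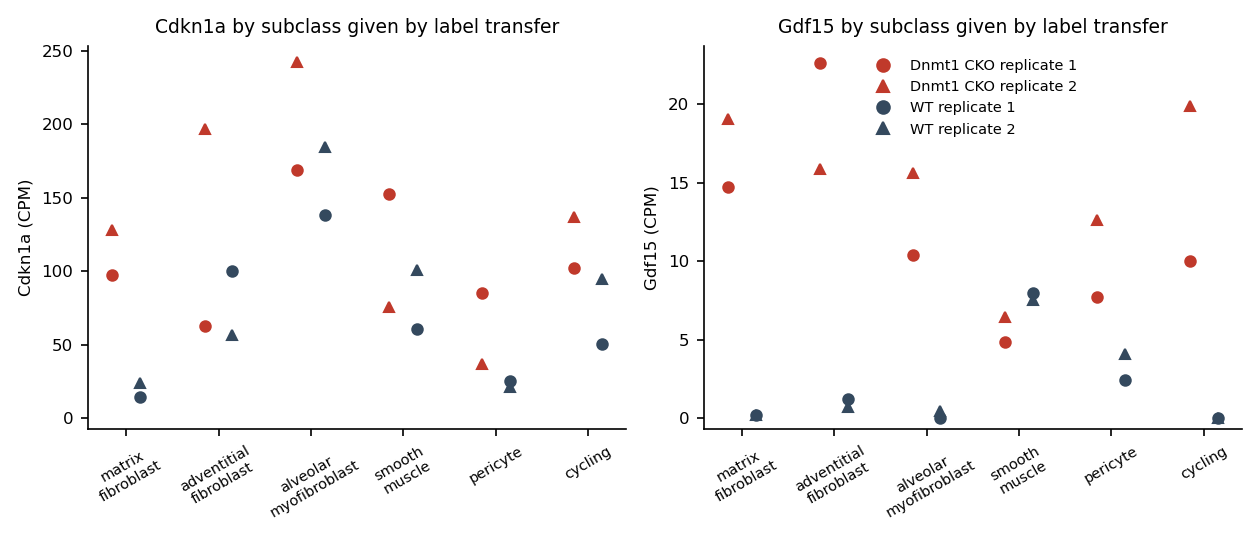
Level of Cdkn1a (left) and Gdf15 (right) in CPM in each mesenchymal subclass, with Dnmt1 CKO cells placed by label transfer. Each point is 1 library, Dnmt1 CKO left of WT, circles replicate 1 and triangles replicate 2. In matrix fibroblast-like cells Cdkn1a is at 97.5 and 128 CPM in Dnmt1 CKO against 14.5 and 23.7 CPM in WT, and in alveolar myofibroblast-like cells the groups overlap.

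The same fits were made in cells outside the mesenchymal-like class. Dnmt1 was not called in any of them. Mesothelial-like cells had 9.50 and 17.9 CPM in Dnmt1 CKO, against 52.2 and 48.6 CPM in WT, groups that did not overlap (log2 fold change -1.72, SE 0.343, adjusted p = 0.0915). Of the 9 germline genes tested there 7 were called higher. Dnmt1 had 22.3 and 15.1 CPM in Dnmt1 CKO epithelial-like cells, against 19.13 and 18.1 CPM in WT, 72.8 and 62.3 CPM in Dnmt1 CKO endothelial-like cells, against 73.2 and 66.7 CPM in WT, and 76.2 and 40.5 CPM in Dnmt1 CKO immune-like cells, against 56.2 and 62.7 CPM in WT. In these 3 classes no germline gene was called, but every one tested had a positive log2 fold change. The medians were 3.37 over 5 tested genes in epithelial-like, 3.51 over 3 in endothelial-like and 2.55 over 3 in immune-like cells. By edgeR 5, 3 and 2 of them were at an unadjusted p under 0.05. The source of these transcripts was not tested. Epithelial-like cells gave 0 calls among 38 tested members by edgeR, with 3 at an unadjusted p under 0.05, and 0 by DESeq2, where edgeR called 0% of all genes. Endothelial-like cells gave 0 of 38 by edgeR, with 1 at an unadjusted p under 0.05, and 0 by DESeq2 (0.0157% of all genes). Immune-like cells gave 0 of 37, with 3, and 0 by DESeq2 (0.00816%), and mesothelial-like cells 0 of 27, with 3, and 0 by DESeq2 (0.468%). Cdkn1a was expressed in all of them: it had 114 and 167 CPM in Dnmt1 CKO epithelial-like cells, against 99.3 and 129 CPM in WT, and 82.4 and 207 CPM in Dnmt1 CKO endothelial-like cells, against 162 and 184 CPM in WT. Gdf15 had 3.58 and 2.24 CPM in Dnmt1 CKO epithelial-like cells, against 0.578 and 1.15 CPM in WT, and 4.04 and 8.76 CPM in Dnmt1 CKO endothelial-like cells, against 1.42 and 1.27 CPM in WT. Immune-like cells had 40.6 and 254 CPM of Gdf15 in Dnmt1 CKO, against 3.71 and 25.7 CPM in WT, groups that did not overlap but varied widely between the libraries of a genotype (log2 fold change 3.39, adjusted p = 0.832). Gdf15 was called higher in immune-like cells without Dnmt1 CKO replicate 1 (log2 fold change 4.19) or replicate 2 (log2 fold change 1.39) and with no low-count filter (log2 fold change 3.41), and in endothelial-like cells without Dnmt1 CKO replicate 1 (log2 fold change 2.49) and with no low-count filter (log2 fold change 2.04). Leaving out a Dnmt1 CKO library assumes that the one left varies like WT. Without Dnmt1 CKO replicate 1 there were 4 calls in immune-like cells and 1 in endothelial-like cells, and without Dnmt1 CKO replicate 2 there was 1 in immune-like cells.

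Whether the change in mesenchymal-like cells was larger than in another class was tested as a difference of changes within the same libraries. Against epithelial-like cells 4 members were called, all with a larger rise in mesenchyme, where 1.9% of all genes were called higher. Cdkn1a gave a difference of 1.26 on the log2 scale (SE 0.126, adjusted p = 0.00691), Rrm2b 0.99 (adjusted p = 0.0202), Bbc3 1.51 (adjusted p = 0.0254) and Gdf15 2.63 (adjusted p = 0.0460). Bbc3 shows the pattern: its 20.4 and 27.4 CPM in Dnmt1 CKO mesenchyme were close to the epithelial 26.3 and 25.8 CPM of the same libraries, whereas WT had 8.79 and 9.40 CPM in mesenchyme and 32.2 and 25.3 CPM in epithelium. Against endothelial-like cells 8 members were called, again all in the same direction (2.8% of all genes were called higher): Cdkn1a, Bbc3, Trp53, Fas, Rrm2b, Casp8, Psrc1 and Pmaip1, with differences of 0.81 for Trp53 to 2.26 for Pmaip1. Gdf15 gave 1.98 against endothelium (SE 0.485, adjusted p = 0.0503). Trp53 had 176 and 148 CPM in Dnmt1 CKO endothelial-like cells, against 145 and 149 CPM in WT, and the mesenchymal level in Dnmt1 CKO stayed below the endothelial one.

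Mesenchymal-like cells of the Dnmt1 CKO libraries were a mixture. Germline genes such as Dazl, Rpl39l and Tuba3b are kept silent in somatic cells by DNA methylation, and 10 of them were counted in each cell as a mark of the state of that cell. With 2 or more UMIs over the 10 genes a cell is called germline-positive here, and with 0 germline-negative. Germline-positive cells numbered 2162 and 1726 in Dnmt1 CKO (84.4% and 61.9% of mesenchymal-like cells), against 0 and 1 in WT. Germline-negative cells numbered 286 and 900 in Dnmt1 CKO, against 2772 and 2537 in WT. Dnmt1 was at 5.55 and 4.94 CPM in the germline-positive cells of Dnmt1 CKO replicates 1 and 2, against 46.3 and 30.2 CPM in the germline-negative cells of the same libraries (log2 fold change -2.80, adjusted p = 1.09e-09). The libraries' germline-positive and germline-negative cells were compared in a paired fit, which holds the library constant. Since the germline list was chosen for its rise in these data, the split is by a result of the same experiment, but no member was used in it.

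Of 39 members 20 were higher in germline-positive cells and 2 lower, where 15.7% of the 14106 genes tested were called higher and 14.2% lower. The median log2 fold change was 0.46 for the members and 0.01 for all genes tested. Cdkn1a had 113 and 182 CPM in germline-positive cells of Dnmt1 CKO replicates 1 and 2, against 41.1 and 50.6 CPM in germline-negative cells (log2 fold change 1.69, SE 0.118, adjusted p = 2.67e-09). Gdf15 had 15.8 and 24.9 CPM in germline-positive cells, against 1.04 and 3.64 CPM in germline-negative cells (log2 fold change 2.86, SE 0.263, adjusted p = 1.19e-07). Both genes were higher in germline-positive cells in both libraries. Trp53inp1, a p53-induced nuclear protein, had 58.8 and 77.9 CPM, against 26.5 and 36.4 CPM (log2 fold change 1.10, adjusted p = 1.7e-06). Ccng1 had 47.7 and 44.1 CPM, against 23.9 and 20.7 CPM (log2 fold change 1.04, adjusted p = 1.41e-05). Rrm2b had 44.6 and 50.3 CPM, against 20.3 and 26.3 CPM (log2 fold change 0.99, adjusted p = 2.12e-05). Plk2 had 75.7 and 56.7 CPM, against 28.1 and 32.8 CPM (log2 fold change 1.02, adjusted p = 2.1e-05).

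Trp53 was at 121 and 138 CPM in germline-positive cells, against 85.8 and 79.4 CPM in germline-negative cells (log2 fold change 0.66, adjusted p = 0.000115). Mdm2, which was not called between the genotypes, was at 51.6 and 54.1 CPM in germline-positive cells, against 29.7 and 36.6 CPM in germline-negative cells (log2 fold change 0.64, adjusted p = 0.000851). By role, 10 of the 12 arrest and stress genes were higher, as were Bbc3, Bcl2l11, Bax, Ei24 and Aen among the promoters of apoptosis, and Tnfrsf10b, Rrm2b and Polk. The 2 lower members stood on opposite sides of the mitochondrial pathway: the pore former Bak1, with 17.3 and 12.98 CPM against 28.1 and 19.0 CPM in germline-negative cells, and the anti-apoptotic Mcl1, with 281 and 269 CPM against 344 and 346 CPM. Top2a and Mki67 were not called between the states (log2 fold changes 0.21 and 0.015). Median depth was 7353.5 and 6078 UMIs per cell in germline-positive cells, against 6847 and 5381.5 in germline-negative cells. With DESeq2 7 of the 22 calls remained, Cdkn1a, Gdf15 and Trp53 among them, and Mdm2 was not called (adjusted p = 0.102). With cells thinned to 3000 UMIs 13 remained, and in matrix fibroblast-like or in non-cycling cells alone 19 and 20 members were called. The share of all genes called in these alternative fits is not given here.

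**Figure D3:**
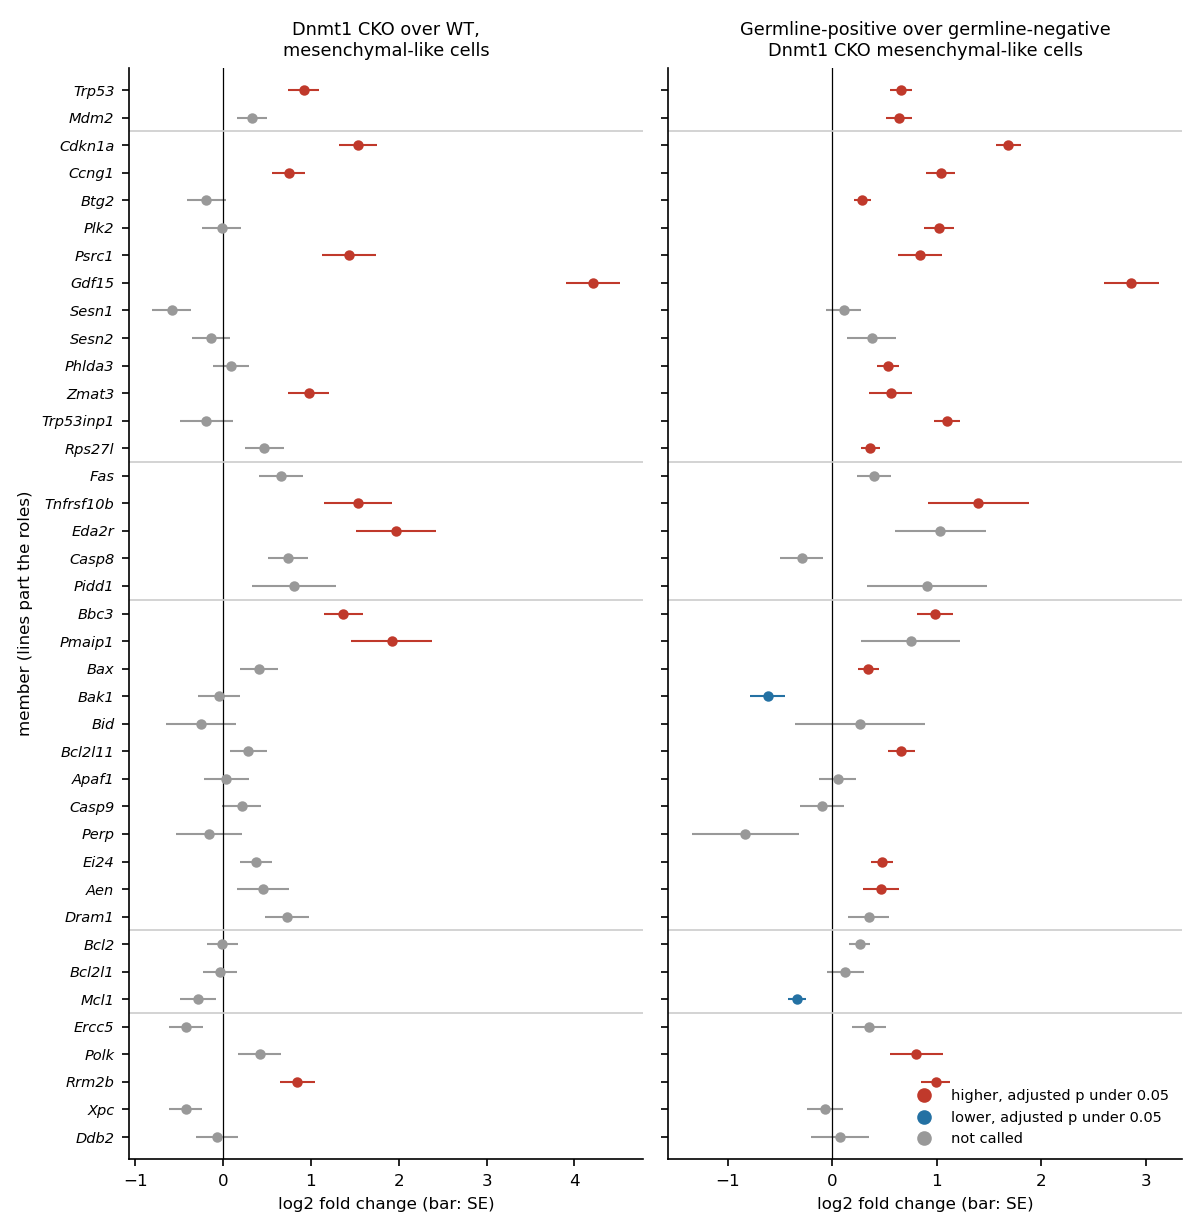
Log2 fold change of all 39 members with its SE, for Dnmt1 CKO over WT in mesenchymal-like cells (left) and for germline-positive over germline-negative cells within the Dnmt1 CKO libraries (right). Red marks a call higher and blue a call lower at an adjusted p under 0.05, grey no call, and lines part the roles in the order of the text. The left panel has 11 red and 0 blue points and the right panel 20 red and 2 blue.

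Germline-negative cells of the Dnmt1 CKO libraries were then set against germline-negative cells of WT. Of 37 tested members 0 were called by edgeR, with 10 at an unadjusted p under 0.05, and 1, lower, by DESeq2, where edgeR called 1.43% of all genes. Cdkn1a had 41.1 and 50.6 CPM in Dnmt1 CKO, against 36.4 and 47.5 CPM in WT, and the groups overlapped (log2 fold change 0.15, SE 0.228, adjusted p = 0.865). Gdf15 had 1.04 and 3.64 CPM in Dnmt1 CKO, against 0.647 and 0.848 CPM in WT (log2 fold change 1.64, SE 0.546, adjusted p = 0.191). Trp53 had 85.8 and 79.4 CPM in Dnmt1 CKO, against 60.0 and 62.6 CPM in WT (log2 fold change 0.43, SE 0.199, adjusted p = 0.388). Plk2 had 28.1 and 32.8 CPM in Dnmt1 CKO, against 50.4 and 68.9 CPM in WT (log2 fold change -0.94, SE 0.233, adjusted p = 0.0700). Top2a was higher in the germline-negative cells of Dnmt1 CKO, at 109.8 and 92.5 CPM, against 55.4 and 45.1 CPM in WT (adjusted p = 0.0383). Without Dnmt1 CKO replicate 2 there were 3 calls and without WT replicate 1 there were 2. This comparison and the one over all mesenchymal-like cells share their WT libraries.

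The last question was whether the targets lie in cycling cells. Cells with a UMI of Top2a or Mki67, genes of G2 and M phase, are called cycling here, and cells with none non-cycling. Cycling cells numbered 514 and 397 in Dnmt1 CKO (20.1% and 14.2% of mesenchymal-like cells), against 8.96% and 7.93% of those in WT. In alveolar type 1-like cells, which have left the cell cycle, 2.22% and 2.75% of cells in Dnmt1 CKO, against 2.34% and 2.67% in WT, met this rule after thinning to 3000 UMIs, and 5.71% and 6.61%, against 4.40% and 7.57%, without thinning. Cycling cells were deeper, with medians of 9075 and 7257 UMIs in Dnmt1 CKO, against 7016 and 5657 in non-cycling cells, and of 6941 and 9123.5 UMIs in WT, against 5892 and 7564.

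The genotype difference was present on both sides of this split. Non-cycling here means only that a cell had no Top2a or Mki67 UMI. Of 30 tested S phase genes 8 were called higher in non-cycling cells of Dnmt1 CKO and 0 lower (median log2 fold change 0.65). Of 27 tested G2 and M phase genes 5 were called higher and 1 lower (median 0.44). The part of these differences in the members' changes was not tested. In non-cycling cells 10 members rose in Dnmt1 CKO and 0 fell, where 6.62% of all genes were called higher, and the members' median log2 fold change was 0.36. Cdkn1a had 96.2 and 141 CPM in Dnmt1 CKO non-cycling cells, against 32.2 and 46.0 CPM in WT (log2 fold change 1.60, SE 0.246, adjusted p = 0.00479). Gdf15 had 12.2 and 16.2 CPM, against 0.661 and 0.722 CPM in WT (log2 fold change 4.12, SE 0.304, adjusted p = 8.98e-05). Bbc3 had 21.0 and 29.1 CPM, against 8.72 and 9.28 CPM in WT (log2 fold change 1.46, SE 0.225, adjusted p = 0.00484). Trp53, Psrc1, Zmat3, Rrm2b, Eda2r, Ccng1 and Pmaip1 were the other 7. The calls of Psrc1, Zmat3, Eda2r, Ccng1 and Pmaip1 were not kept in every fit with a library left out. Without WT replicate 2 there were 5 calls.

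In cycling cells 5 of 34 tested members rose and 0 fell, where 3.17% of all genes were called higher, with a median log2 fold change of 0.41. Gdf15 had 18.7 and 25.5 CPM in Dnmt1 CKO cycling cells, against 0.519 and 1.89 CPM in WT (log2 fold change 3.59, SE 0.430, adjusted p = 0.000782). Cdkn1a had 129 and 135 CPM in Dnmt1 CKO, against 69.0 and 61.1 CPM in WT (log2 fold change 1.03, SE 0.195, adjusted p = 0.0118). Tnfrsf10b had 4.72 and 3.87 CPM, against 0.519 and 0 CPM in WT, Trp53 had 135 and 145 CPM, against 78.3 and 87.6 CPM in WT (adjusted p = 0.0373), and Ccng1 had 51.8 and 41.9 CPM, against 27.0 and 21.3 CPM in WT (adjusted p = 0.0398). Mdm2 had 62.4 and 58.3 CPM in Dnmt1 CKO cycling cells, against 38.9 and 38.8 CPM in WT (log2 fold change 0.65, SE 0.201, adjusted p = 0.0877). The count was 3 by DESeq2 and 1 with cells thinned to 3000 UMIs. The call of Trp53 was lost with thinning and whichever library was left out (log2 fold changes of 0.72 to 0.85). That of Cdkn1a was lost with thinning and without WT replicate 2 (0.91 to 1.18 as each library was left out). The call of Ccng1 was lost by DESeq2, with thinning and without Dnmt1 CKO replicate 1, WT replicate 1 or WT replicate 2. That of Tnfrsf10b was lost by DESeq2 and without WT replicate 1 or WT replicate 2.

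Cycling cells were also set against non-cycling cells of the same library. In Dnmt1 CKO 8 members were higher and 3 lower in cycling cells, where 9.64% of all genes were called higher and 8.79% lower. Psrc1, whose protein acts on the mitotic spindle, had 30.3 and 44.1 CPM in cycling cells, against 8.04 and 7.64 CPM in non-cycling cells (log2 fold change 2.11, adjusted p = 5.42e-14). Mdm2 had 62.4 and 58.3 CPM in cycling cells, against 44.7 and 45.8 CPM in non-cycling cells (log2 fold change 0.35, adjusted p = 0.00543). Trp53 had 135 and 145 CPM, against 108 and 112 CPM (log2 fold change 0.27, adjusted p = 0.00324). Casp8 had 18.7 and 12.9 CPM, against 9.26 and 10.0 CPM (log2 fold change 0.67, adjusted p = 0.00635). Gdf15 had 18.7 and 25.5 CPM in cycling cells, against 12.2 and 16.2 CPM in non-cycling cells (log2 fold change 0.55, SE 0.158, adjusted p = 0.0104). The antiproliferative Btg2 was lower in cycling cells, at 1284 and 1075 CPM, against 1486 and 1159 CPM in non-cycling cells (log2 fold change -0.23, adjusted p = 0.00026), as were Bcl2 and Bbc3. Bbc3 had 18.7 and 19.7 CPM in cycling cells, against 21.0 and 29.1 CPM in non-cycling cells (log2 fold change -0.42, SE 0.140, adjusted p = 0.0311). By DESeq2 2 of these 11 calls remained, and 3 with cells thinned to 3000 UMIs. The calls of Gdf15, Trp53, Casp8, Bcl2 and Bbc3 were lost in both settings, and that of Mdm2 by DESeq2.

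Cdkn1a was not called between cycling and non-cycling cells in Dnmt1 CKO. It had 129 and 135 CPM in cycling cells, against 96.2 and 141 CPM in non-cycling cells: cycling cells were higher in replicate 1 and slightly lower in replicate 2 (log2 fold change 0.12, SE 0.089, adjusted p = 0.444). In WT it was higher in cycling cells, at 69.0 and 61.1 CPM, against 32.2 and 46.0 CPM in non-cycling cells (log2 fold change 0.62, SE 0.135, adjusted p = 0.000509). With cells thinned to 3000 UMIs this WT call was lost, though its direction was kept. The difference between the genotypes in this contrast was -0.51 on the log2 scale (SE 0.160, adjusted p = 0.0682). In all, WT gave 4 members higher in cycling cells (Psrc1, Cdkn1a, Trp53 and Casp8) and 3 lower (Btg2, Phlda3 and Trp53inp1), where 10.4% of all genes were called higher and 9.17% lower. The difference between the genotypes was called in 1 member with a higher value in Dnmt1 CKO and 2 with a lower one, where 1.08% and 2.54% of all genes were, and in 0 members by DESeq2. Phlda3, an inhibitor of Akt signalling, had 92.5 and 111 CPM in Dnmt1 CKO cycling cells, against 83.5 and 93.6 CPM in non-cycling cells, and in WT 72.1 and 64.4 CPM in cycling cells, against 98.4 and 74.6 CPM in non-cycling cells. Phlda3 was called lower in cycling cells of WT and was not called in Dnmt1 CKO, with a difference between the genotypes of 0.56 (SE 0.123, adjusted p = 0.00386), which turned to -0.21 under the alternative cell rule given next. A cell rule on 2 or more UMIs over the whole G2 and M list, tried as an alternative, took in 56.5% to 65.9% of the mesenchymal-like cells of each library, and under it Cdkn1a was lower in cycling cells, by log2 fold changes of -0.31 in Dnmt1 CKO (adjusted p = 0.00326) and -0.54 in WT (adjusted p = 0.000305).

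In single cells the share with a UMI was read after thinning every cell to 3000 UMIs, which left out 144 and 301 of the Dnmt1 CKO mesenchymal-like cells and 186 and 150 of the WT cells as too shallow. The cycling rule was applied again to the thinned counts, so a cell that lost its Top2a and Mki67 UMIs counted as non-cycling. Dnmt1 CKO replicate 1 had 514 cycling and 2048 non-cycling cells before thinning, and 328 and 2090 after it. Thinned shares therefore differ from the others in depth and in which cells are called cycling. A Cdkn1a UMI was present in 19.8% of cycling cells of Dnmt1 CKO replicate 1 (95% Clopper-Pearson interval 15.6% to 24.5%, 328 cells), against 15.1% of its non-cycling cells (13.6% to 16.7%, 2090 cells). In Dnmt1 CKO replicate 2 it was present in 18.3% of cycling cells (13.8% to 23.4%, 268 cells), against 19.4% of non-cycling cells (17.8% to 21.1%, 2219 cells). In WT replicate 1 the shares were 15.1% of cycling cells (9.99% to 21.4%) and 7.04% of non-cycling cells (6.06% to 8.13%), and in WT replicate 2 13.9% (8.17% to 21.6%) and 10.3% (9.13% to 11.7%). The intervals cover counting error only. With thinning to 2000 UMIs the mean difference of Cdkn1a in Dnmt1 CKO, cycling minus non-cycling, was -1.93 percentage points (SD 3.67, n = 2), against 1.80 (SD 4.10, n = 2) at 3000, so its direction turned with the depth. Without thinning, 32.7% and 32.5% of cycling cells in Dnmt1 CKO had a Cdkn1a UMI, against 23.3% and 27.5% of non-cycling cells, and 26.1% and 28.7% of cycling cells in WT, against 10.4% and 16.5% of non-cycling cells. Alveolar type 1-like cells did not lack Cdkn1a: 30.4% and 41.9% of them in Dnmt1 CKO, against 24.6% and 36.0% in WT, had a UMI after thinning, so they give no background share for it.

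A Gdf15 UMI was present in 3.05% and 3.73% of cycling cells in Dnmt1 CKO (10 of 328 and 10 of 268 cells), against 2.11% and 3.06% of non-cycling cells (44 of 2090 and 68 of 2219), with overlapping intervals in each library. In WT it was present in 0 of 166 cycling cells, which allows a share of up to 1.81% by a floor of 3 counts (the upper Clopper-Pearson limit is 2.198%), and in 1 of 115, and in 0.247% and 0.175% of non-cycling cells. In alveolar type 1-like cells 1 of 135 and 0 of 291 cells in Dnmt1 CKO, and 0 of 342 and 0 of 300 in WT, had a Gdf15 UMI, where the same floor allows shares of up to 1.03%, 0.877% and 1.00%. Without thinning the shares were 6.03% and 7.81% of cycling cells in Dnmt1 CKO, against 3.27% and 4.56% of non-cycling cells, and the alveolar type 1-like shares were 0.714% and 0.901% in Dnmt1 CKO and 0 of 364 and 0 of 317 in WT.

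Read from the other end, most cells that carried either transcript were non-cycling by the rule on thinned counts, that is without a Top2a or Mki67 UMI. Of 381 and 479 thinned Dnmt1 CKO cells with a Cdkn1a UMI, 17.1% and 10.2% were cycling, where 13.6% and 10.8% of all thinned mesenchymal-like cells were. Of 54 and 78 cells with a Gdf15 UMI, 18.52% (9.25% to 31.4%) and 12.8% (6.32% to 22.3%) were cycling, intervals that include the share among all cells. In WT 12.8% and 6.35% of 196 and 252 cells with a Cdkn1a UMI were cycling, where 6.40% and 4.80% of all cells were. Germline-positive cells made up 88.9% and 88.5% of the Gdf15 carriers in Dnmt1 CKO, where 74.8% and 59.1% of all thinned cells were germline-positive, and 81.4% and 73.7% of the Cdkn1a carriers.

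**Figure D4:**
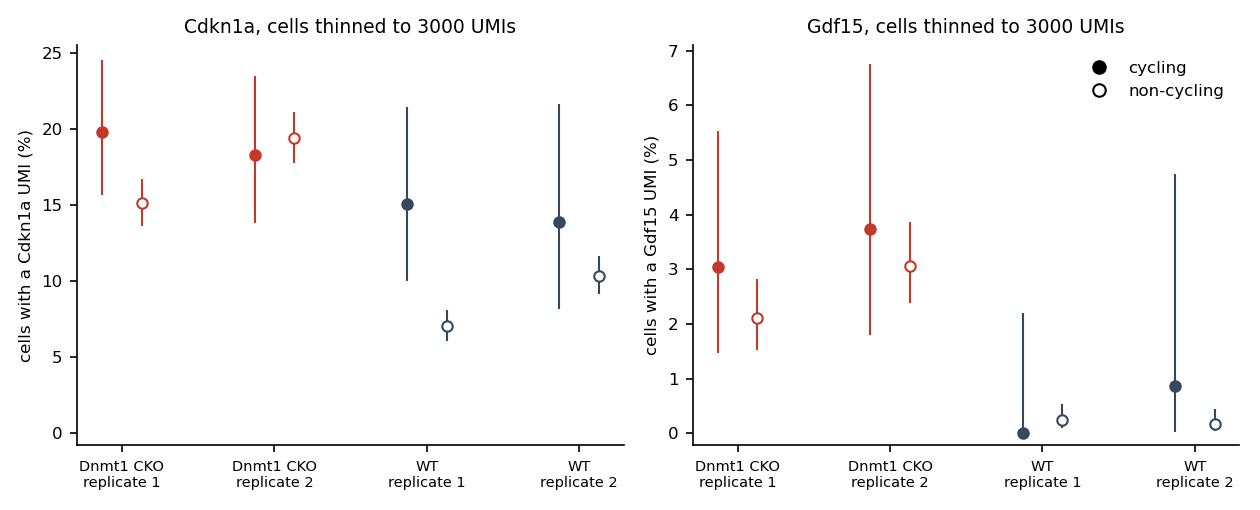
Share of mesenchymal-like cells with a UMI of Cdkn1a (left) and Gdf15 (right) after thinning to 3000 UMIs, by library, for cycling (filled) and non-cycling (open) cells. Bars are 95% Clopper-Pearson intervals. For Cdkn1a the cycling and non-cycling intervals overlap in both Dnmt1 CKO libraries and in WT replicate 2, and part in WT replicate 1.

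Germline state and cycling state were crossed for both genes. In germline-positive cells of Dnmt1 CKO replicates 1 and 2 Cdkn1a was at 135 and 172 CPM when cycling (449 and 267 cells), against 105 and 184 CPM when non-cycling (1713 and 1459 cells). In germline-negative cells of the same libraries it was at 62.6 and 38.9 CPM when cycling (49 and 118 cells), against 34.9 and 52.96 CPM when non-cycling, and germline-negative WT cells had 68.8 and 61.1 CPM when cycling, against 32.3 and 45.9 CPM when non-cycling. Germline-positive cells were above every germline-negative value whether cycling or not. Gdf15 followed the same order, at 21.0 and 34.8 CPM in germline-positive cycling cells, against 14.01 and 22.5 CPM in germline-positive non-cycling cells, while germline-negative Dnmt1 CKO cells had 0 and 2 UMIs when cycling and 2 and 16 UMIs when non-cycling.

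**Figure D5:**
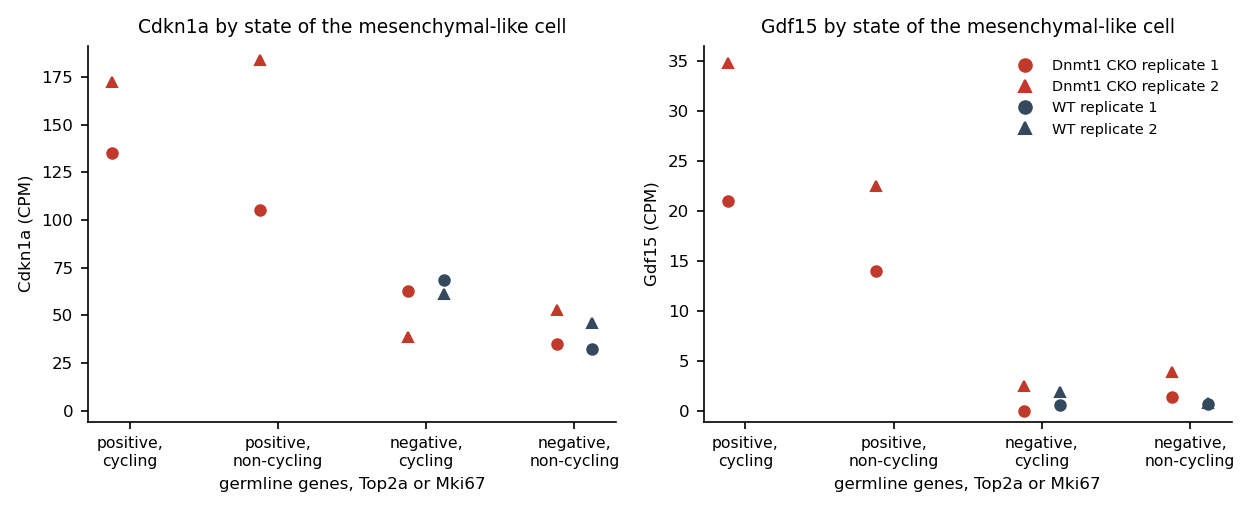
Level of Cdkn1a (left) and Gdf15 (right) in CPM in mesenchymal-like cells sorted by germline genes (2 or more UMIs, or 0) and by Top2a or Mki67. Each point is 1 library, Dnmt1 CKO left of WT, and states with under 20 cells in a library are not drawn. Both genes are higher in the germline-positive states, cycling or not.

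Members also met in the same cells. Among thinned Dnmt1 CKO cells, 27 of the 54 and 30 of the 78 with a Gdf15 UMI had a Cdkn1a UMI as well, against 14.97% and 18.6% of the others. Ccng1 was present in 23.4% and 17.5% of cells with a Cdkn1a UMI, against 9.38% and 7.82% of the others in Dnmt1 CKO, and in WT in 8.16% and 6.35%, against 6.84% and 7.18%. Phlda3 was present in 35.4% and 32.6% of cells with a Cdkn1a UMI in Dnmt1 CKO, against 17.5% and 20.02% of the others, whereas in WT the shares were 11.2% and 11.5%, against 22.3% and 18.52%. These cells share their libraries and their mixture of subclasses, and the shares are given as a description.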

How the data were processed

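Single-cell RNA of 4 lung libraries, 2 per genotype, was analysed. Each deposited matrix holds raw UMI counts. The submitters' processing notes name bcl2fastq 2.20, Cell Ranger 3.1.0, Seurat and the build GRCm38.p6, from which the authors' counts came. Barcodes with at least 500 genes and at most 20% mitochondrial UMIs were kept, Scrublet doublets were removed, and cells were clustered in scanpy 1.11.5 (Leiden resolution 1, no integration) with the members and the cell cycle lists kept out of the 2000 variable genes. Clusters were named from marker lists. Label transfer used the 15 nearest WT cells. UMIs were summed per library and class and tested with edgeR 4.0.16 (quasi-likelihood F-test, filterByExpr, TMM, prior count 2, Benjamini-Hochberg over all genes tested) in R 4.3.3, after a test on simulated data. SE is the fold change divided by the root of F. The library was a block within libraries. Alternatives were DESeq2 1.42.0, RLE scaling, other filters and resolutions, thinning and leaving out each library. Intervals are Clopper-Pearson at 95%. Named were Cdkn1a, Gdf15, Trp53, Mdm2 and the called members, and the genes with the smallest adjusted p of each list; any other member named was chosen after its values were seen. The members and lists were chosen with earlier results of these data known. Precision is limited by 2 libraries per genotype, for which an exact permutation test cannot go below p = 0.333. Some genes of the lists are not reported here.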

Additional observations from a re-analysis of the deposited data

Results flagged for a closer look

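The change between Dnmt1 CKO and WT differed between mesenchymal-like and epithelial-like cells of the same libraries, by a test of the difference itself, in 4 members: Cdkn1a by 1.26, Rrm2b by 0.99, Bbc3 by 1.51 and Gdf15 by 2.63 on the log2 scale. Against endothelial-like cells it differed in 8 members: Cdkn1a by 1.90, Bbc3 by 1.38, Trp53 by 0.81, Fas by 0.99, Rrm2b by 0.93, Casp8 by 0.99, Psrc1 by 1.76 and Pmaip1 by 2.26. Each of these 12 differences was positive, a larger change in mesenchymal-like cells. Of the 8 against endothelial-like cells 5 were called by DESeq2.

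The difference between cycling and non-cycling cells was not the same in the genotypes for 3 members: it was larger in Dnmt1 CKO for Phlda3, by 0.56, and smaller for Psrc1, at -0.998, and Bcl2, at -0.39. None of these 3 was called by DESeq2.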

How the results depend on the processing

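Of 860 values of single genes recomputed under the alternatives, 670 kept direction and side of the threshold, 160 kept direction and lost the call, 12 gained one and 18 changed sign; the cause was not tested. The share of all genes called is not given for the alternatives of this section, which include the block and the fits with a library left out. A change in a count of calls is therefore not read as a result about the members. Counts of called members that moved by over 1.5 times were as follows. Without the low-count filter there was 1 in matrix fibroblast-like, 0 in adventitial fibroblast-like, 9 in smooth muscle-like, 2 in pericyte-like, 1 in cycling-like, 1 in endothelial-like and 2 in immune-like cells, 10 for the difference from epithelium, and 3 in germline-negative cells. DESeq2 gave 0 in adventitial fibroblast-like, 3 in smooth muscle-like and 0 in pericyte-like cells, 5 for the difference from endothelium, 3 in cycling cells, 2 for cycling over non-cycling cells of Dnmt1 CKO, 0 for the genotype difference of that effect, 7 for germline-positive over germline-negative cells and 1 in germline-negative cells. RLE scaling gave 0 in pericyte-like cells, and Leiden resolution 2 gave 0 in adventitial fibroblast-like cells. Label transfer gave 12 in matrix fibroblast-like, 1 in alveolar myofibroblast-like and 0 in smooth muscle-like cells. Thinning to 3000 UMIs gave 1 in cycling cells, 3 for cycling over non-cycling cells of Dnmt1 CKO and 3 of WT, 1 for the genotype difference and 13 for germline-positive over germline-negative cells. The list of G2 and M phase genes as the cycling rule gave 10 in cycling cells, 5 for cycling over non-cycling cells of Dnmt1 CKO and 0 for the genotype difference.

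Replicate numbers were shared between the genotypes by number alone, and deviations of same-numbered libraries had a correlation of 0.105 over 2 pairs. With the replicate number as a block there were 15 calls in mesenchymal-like cells, 1 in matrix fibroblast-like, 2 in alveolar myofibroblast-like, 9 in smooth muscle-like, 2 in pericyte-like, 1 in endothelial-like, 1 in immune-like, 10 in cycling and 4 in germline-negative cells. Under the block Cdkn1a was called lower in alveolar myofibroblast-like cells, and Gdf15 higher in immune-like and endothelial-like cells. With sex as a term 10 members were called in mesenchymal-like cells.

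With each library left out in turn, counts ran from 7 to 10 in mesenchymal-like, 0 to 1 in matrix fibroblast-like, 0 to 1 in adventitial fibroblast-like, 1 to 6 in smooth muscle-like, 0 to 2 in pericyte-like, 0 to 1 in endothelial-like, 0 to 4 in immune-like, 5 to 10 in non-cycling, 1 to 3 in cycling and 0 to 3 in germline-negative cells, and 7 to 11 in matrix fibroblast-like cells by label transfer. The log2 fold change of Cdkn1a then ran from -0.25 to 0.78 in adventitial fibroblast-like, -0.021 to 0.54 in epithelial-like, -1.05 to 0.29 in endothelial-like, -0.22 to 0.66 in immune-like, -0.67 to 0.22 in mesothelial-like and -0.027 to 0.32 in germline-negative cells.

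Signs also turned under label transfer for Cdkn1a in alveolar myofibroblast-like cells (0.42) and Bcl2 in smooth muscle-like cells (-0.44). With the G2 and M phase list Cdkn1a in cycling over non-cycling cells was -0.31 in Dnmt1 CKO and -0.54 in WT and Phlda3 in WT was 0.26, and the genotype differences were 0.23 for Cdkn1a, 0.25 for Gdf15, -0.21 for Phlda3 and 0.076 for Bcl2. Thinning put Cdkn1a at -0.018 in Dnmt1 CKO, and the genotype difference of Gdf15 was 0.026 without the low-count filter. Cycling minus non-cycling shares without thinning were 7.18 percentage points for Cdkn1a in Dnmt1 CKO and 13.96 in WT, and 3.005 for Gdf15 in Dnmt1 CKO, which was 1.31 with thinning to 2000 UMIs, a depth at which Cdkn1a in Dnmt1 CKO was -1.93.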
